A study of Arabidopsis thaliana with 20 samples.

Results

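The plastid genome of Arabidopsis thaliana carries, beside the genes of the photosynthetic machinery, a smaller set of housekeeping genes, and 33 entries of the expression table for these genes are described here, of 30613 features in all. The entries were taken by their identifiers. They comprise 4 genes for subunits of the plastid-encoded RNA polymerase, 24 entries for ribosomal proteins and 5 entries for matK, clpP1, ycf1 and ycf2. All 33 passed the filter on low values, which removed no feature of the table. The files give plastid genes as identifiers only, so the gene names used here are the standard names of these identifiers. For 32 of the 33 entries the RefSeq gene table (TAIR10.1) holds a gene of the same name with a position.

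The libraries came from chromatin-associated RNA, the RNA that stays with the chromatin fraction, of 10-day-old whole seedlings in the Col-0 background. There were 5 genotypes with 2 input libraries each. In 4 of them the plants overexpressed human ALKBH5, an enzyme that removes N6-methyladenosine (m6A) from RNA. ALKBH5 del-cIDR lacks the C-terminal intrinsically disordered region. ALKBH5 del-cIDR H204A lacks the region and carries a change that inactivates the enzyme (called inactive del-cIDR). ALKBH5 FL is full length, and ALKBH5 FL H204A is its inactive form (inactive FL). Untransformed Col-0 plants were the reference. Matching m6A immunoprecipitated (IP) libraries, also 2 for each genotype, gave m6A values for peaks. The labels name neither the promoter that drives ALKBH5 nor the number of independent transformants, so an effect of a construct and an effect of the line that carries it cannot be told apart. They also do not say whether the 2 libraries of a genotype came from separate seedlings, so p-values measure only the spread between these libraries, which may be technical. The human transgene was not analysed here.

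Plastids descend from cyanobacteria and keep a bacterial type of RNA polymerase, whose core subunits are encoded in the plastid genome by rpoA, rpoB, rpoC1 and rpoC2. In flowering plants a phage-type polymerase encoded in the nucleus shares the work. Genes transcribed mainly by the plastid-encoded enzyme include most photosynthesis genes, while the rpoB operon is a textbook case of transcription by the phage-type enzyme, and many housekeeping genes have promoters for both. The plastid ribosome is also of bacterial type, with part of its proteins encoded in the plastid (rps for the small, rpl for the large subunit) and the rest in the nucleus. MatK is an intron maturase that acts in splicing of plastid transcripts, ClpP1 is a catalytic subunit of the Clp protease, and the very large proteins Ycf1 and Ycf2 belong to machinery for protein import at the inner envelope membrane.

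The deposited expression values are signals scaled so that the ERCC spike-ins sum to nearly the same total in every library (109313 to 110569), so a difference in signal is a difference per amount of spike-in and not a share of the library. Depth cannot be recovered from such values, and precision rests on the spread between libraries. Plastid-encoded entries made up 21.4 to 36.8% of the signal, lowest in FL and highest in inactive del-cIDR, and the 33 entries together held 1.32 to 1.82% of the plastid signal. Most were well measured: ranked by mean signal over the 10 libraries, they ran from the 66.9th percentile of all features (rps16) to above the 99.9th (rps14), with a median at the 98.4th. Markers of the seedling's tissues were looked up by name. All 5 mesophyll, 5 of 6 root, all 4 guard cell, all 3 xylem, all 3 phloem and 1 of 3 dividing-cell genes were found. So were the epidermis genes ATML1 and CER5. Being found does not show that a gene was expressed. The root genes RHD6, EXP7 and CASP1 had medians of 22.3, 21.3 and 25.5 over the libraries. These lay below the median of all features, 51.0 to 100 by library. CASP2 and PRX34 were at 90.9 and 248. Below, changes are log2 differences from limma, which shares the spread over the 10 libraries, and a gene is said to have risen or fallen where its p, adjusted by Benjamini and Hochberg's method across the whole table, was under 0.05.

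Per kilobase of gene, housekeeping genes differed widely in level among themselves. In Col-0 the median signal per kilobase was 2677 for the 4 polymerase genes, 4666 for the 23 ribosomal protein entries with a length and 412 for the 5 other entries. On the same scale rps14 stood at 103391, far above rpl33 at 13788 and rpl14 at 13512, the next in the order. rps14 encodes a small-subunit protein and is known to be transcribed together with psaA and psaB of photosystem I. The low end was held by ycf1 at 392, both entries of ycf2 at 412 and 230, and rps16 at 108.

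Most of the 33 entries were higher in both lines without the disordered region, whether the enzyme was active or not, and close to Col-0 or slightly lower in both full-length lines. In del-cIDR 29 entries rose and 3 fell against Col-0, where 65.5% of all features rose and 1.85% fell. The median change of the 33 entries was 0.64, against 0.56 over all features. In inactive del-cIDR 25 entries rose and 4 fell, where 32.4% of all features rose and 7.84% fell, with medians of 0.26 for the 33 entries and 0.31 for all features. In FL 1 entry rose and 18 fell, against 75.5% of all features that rose and 1.47% that fell. Here the median of the 33 entries was -0.13 while that of all features was 0.67. In inactive FL no entry rose and 6 fell, with 16.9% and 3.12% of all features, and the medians were -0.019 and 0.22. At an unadjusted p under 0.05, limma counted 1 higher and 8 lower entries. Other plastid genes moved too. Of 35 photosynthesis entries, all rose in del-cIDR, and 15 rose and 3 fell in inactive del-cIDR. In FL 31 of them fell, and in inactive FL 1 rose and 12 fell. The part in these changes of plastid material carried into the chromatin fraction was not tested.

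Because the median of all features moved by more than 0.1 in these contrasts, each was also read relative to it. With every library centred on the median of all features, 7 of the 33 entries were called higher and 8 lower in del-cIDR than in Col-0, where 8.13% of all features were higher and 21.1% lower. The same numbers were called in inactive del-cIDR, where 11.2% of all features were higher and 24.7% lower, so that the plurality of the calls turned from higher to lower. On the same centred scale all 33 were lower in FL, where 38.9% of all features were, and 31 were lower in inactive FL, where 17.8% were. Centred on the other plastid protein genes instead, 9 were higher and 6 lower in del-cIDR (9.25% and 15.2% of all features). The inactive del-cIDR line had 7 higher and 7 lower (14.4% and 17.1%). On that scale 11 were higher and 6 lower in FL, where 91% of all features were higher and 0.291% lower. In inactive FL none was higher, with 1 at an unadjusted limma p under 0.05, and 5 were lower, where 23.4% of all features were higher and 1.62% lower. Summed markers of several cell types were higher than Col-0 in both lines without the disordered region, where most of the 33 entries rose. The 5 mesophyll genes summed to 151778 and 156073 in del-cIDR, 94620.4 and 93906 in FL, 137474 and 137736 in inactive del-cIDR, 96096 and 97598 in inactive FL, and 88578 and 87945 in Col-0. Phloem markers summed to 1149.8 to 1267 in the 4 libraries without the disordered region. They summed to 734 to 894 in the full-length lines and 753 to 776 in Col-0. The 1 dividing-cell gene found, KNOLLE, had 145 to 166, 77.9 to 107 and 56.1 to 70.8 in the same order. It was above Col-0 in the full-length lines too. Sums of xylem and root markers were above Col-0 in all 8 ALKBH5 libraries. Guard cell markers were higher in del-cIDR and lower in inactive del-cIDR than in Col-0. The part of these markers in the result was not tested. In whole seedlings, a change in the number of cells of a type and a change in RNA per cell cannot be told apart.

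**Figure D1:**
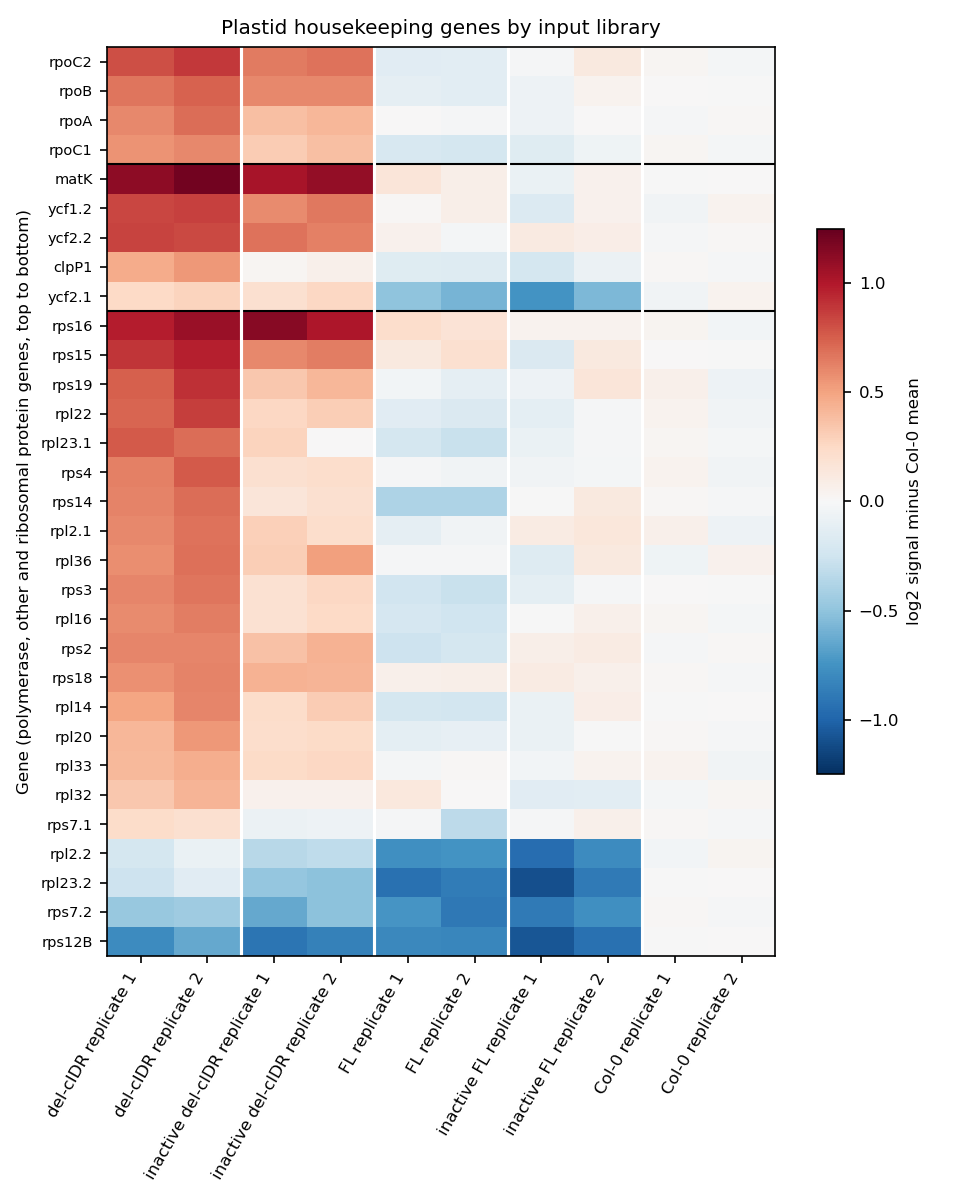
Log2 signal of 31 of the 33 plastid housekeeping entries in each of the 10 input libraries, minus the mean of the 2 Col-0 libraries, in colour (red higher, blue lower), with polymerase, other and ribosomal protein genes from top to bottom and libraries grouped by genotype. On the deposited scale most entries were red in the 4 libraries without the disordered region and pale in the FL and inactive FL libraries, while rps12B, rps7.2, rpl23.2 and rpl2.2 were blue in all 8 ALKBH5 libraries. After centring on the median of all features, calls in del-cIDR split into 7 higher and 8 lower.

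The 4 polymerase genes moved together. All 4 rose in del-cIDR (median 0.68), as they did in its inactive form (median 0.50). After median-centring their medians were still above Col-0, at 0.06 and 0.12, with 1 and 2 of the 4 called higher. Of all features 8.13% and 11.2% were called higher on that scale. In FL 3 of the 4 fell slightly (median -0.13). This turned to a median of 0.10 with 1 higher when libraries were centred on the other plastid protein genes, where 91% of all features were higher. With no trend in the prior variance none of the 4 was called in FL. In inactive FL none passed the test in either direction, with rpoC1 nearest at -0.10 and an adjusted p of 0.0514.

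rpoC2 (ATCG00170), for the beta'' subunit, had a signal of 13178 and 13856 in del-cIDR, 6832 and 6859 in FL, 11776 and 12038 in inactive del-cIDR, 7463 and 8196 in inactive FL and 7650.0 and 7386 in Col-0. The lines without the disordered region lay above all others and apart from each other, and FL lay below Col-0. The log2 difference from Col-0 was 0.85 ± 0.041 (SE, limma adjusted p = 1.47e-24) in del-cIDR and 0.66 ± 0.041 (SE, limma adjusted p = 4.15e-20) in inactive del-cIDR. rpoB (ATCG00190), for the beta subunit that forms the catalytic core with beta', had 9412 and 9888 in del-cIDR, 5478 and 5394 in FL, 8957 and 9007 in inactive del-cIDR, 5680.4 and 6107 in inactive FL and 5935 and 5902 in Col-0. Here the active and the inactive del-cIDR lines lay close together, with log2 differences from Col-0 of 0.70 and 0.60, and inactive FL spanned the Col-0 values. rpoC1 (ATCG00180), for the beta' subunit, had 14752 and 15089 in del-cIDR, 8692 and 8574 in FL, 12456 and 12969.7 in inactive del-cIDR, 8962 and 9589.7 in inactive FL and 10105 and 9822 in Col-0. It showed the smallest rise of the 4 genes in both lines, at 0.58 ± 0.039 (SE, limma adjusted p = 1.20e-18) in del-cIDR and 0.35 ± 0.039 (SE, limma adjusted p = 6.96e-11) in inactive del-cIDR, and after median-centring both values were slightly negative, at -0.032 and -0.027. rpoA (ATCG00740), for the alpha subunit, lies in another operon, at the far end of the ribosomal protein cluster. Its signal was 7368 and 7908 in del-cIDR, 4893 and 4821 in FL, 6308 and 6496 in inactive del-cIDR, 4642 and 4897 in inactive FL and 4819.8 and 4911 in Col-0. The full-length lines overlapped with Col-0, and the difference of FL from Col-0 was -0.0023 ± 0.043 (SE, limma adjusted p = 0.961), the one polymerase gene that did not fall there.

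matK (ATCG00040) showed the largest rise of all 33 entries in del-cIDR. The maturase gene, which lies inside an intron of the lysine tRNA gene, had 11984 and 12757 in del-cIDR, 6122 and 5806 in FL, 11246 and 11859 in inactive del-cIDR, 5213 and 5709.6 in inactive FL and 5493 and 5539.8 in Col-0. The lines without the disordered region lay at 2.24-fold (del-cIDR) and 2.09-fold (inactive del-cIDR) of Col-0 on the scale of log2(value + pseudocount), and inactive FL spanned the Col-0 values. The log2 difference from Col-0 was 1.16 ± 0.043 (SE, limma adjusted p = 6.88e-30) in del-cIDR, 1.06 ± 0.043 (SE, limma adjusted p = 3.02e-28) in inactive del-cIDR and 0.11 ± 0.043 (SE, limma adjusted p = 0.0172) in FL, the one entry that rose in FL on the deposited scale; after median-centring that value was -0.73. Between del-cIDR and its inactive form the difference in matK was 0.10 ± 0.043 (SE, limma adjusted p = 0.075), which did not pass the test.

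ycf1.2 (ATCG01130), the full-length entry of the ycf1 import-channel gene, had 3738 and 3799 in del-cIDR, 2118 and 2216 in FL, 3175 and 3325 in inactive del-cIDR, 1865 and 2179 in inactive FL and 2038 and 2162 in Col-0. It rose by 0.84 ± 0.053 (SE, limma adjusted p = 1.11e-19) in del-cIDR and 0.63 ± 0.053 (SE, limma adjusted p = 7.89e-15) in inactive del-cIDR, while FL and inactive FL overlapped with Col-0. clpP1 (ATCG00670), the protease subunit gene, behaved differently. It had 19397 and 20586 in del-cIDR, 12719.5 and 12621 in FL, 14320.2 and 14766 in inactive del-cIDR, 12075 and 13410.4 in inactive FL and 14227 and 13964 in Col-0. The active del-cIDR line stood above all others, with a difference from Col-0 of 0.50 ± 0.040 (SE, limma adjusted p = 9.57e-16), whereas inactive del-cIDR differed by 0.045 ± 0.040 (SE, limma adjusted p = 0.38). Both full-length lines were lower, at -0.15 ± 0.040 (SE, limma adjusted p = 7.60e-04) in FL and -0.15 ± 0.040 (SE, limma adjusted p = 0.00578) in inactive FL. After median-centring the clpP1 difference in del-cIDR was -0.11. The first copy of ycf2 (ATCG00860) had 3361 and 3441 in del-cIDR, 2004 and 1892 in FL, 3255 and 3391 in inactive del-cIDR, 1689 and 1913 in inactive FL and 2757 and 2916 in Col-0. The second copy (ATCG01280) had 2842 and 2803 in del-cIDR, 1639 and 1562 in FL, 2532 and 2463 in inactive del-cIDR, 1717 and 1673 in inactive FL and 1570.3 and 1598 in Col-0. The copies parted in the full-length lines, where the first was well below Col-0 and the second near it; since they are near-identical, how reads were split between them decides each value. The split is described below.

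Of the 24 ribosomal protein entries, 20 rose and 3 fell in del-cIDR (median 0.61). In inactive del-cIDR 17 rose and 4 fell (median 0.23), while after median-centring the medians were near 0 and -0.15, with 3 higher and 7 lower, and 2 higher and 7 lower. In FL none rose and 13 fell (median -0.15). Centred on the other plastid protein genes this became 7 higher and 5 lower, where 91% of all features were higher and 0.291% lower. In inactive FL none rose and 4 fell (median -0.017). The 17 entries outside the inverted repeat pairs all rose in del-cIDR, 16 of them rose in inactive del-cIDR, and in inactive FL none of the 17 was called either way, with values between -0.14 and 0.09. The entries that fell in del-cIDR all had a second copy.

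rps16 (ATCG00050), whose small-subunit gene product is encoded in an intron-containing gene next to matK, had 242 and 259 in del-cIDR, 139.9 and 135 in FL, 270.3 and 247 in inactive del-cIDR, 123 and 123 in inactive FL and 122 and 116 in Col-0. The active and inactive del-cIDR libraries overlapped with each other and lay apart from all others, with log2 differences from Col-0 of 1.03 ± 0.13 (SE, limma adjusted p = 1.45e-09) and 1.08 ± 0.13 (SE, limma adjusted p = 5.11e-10). It is the lowest of the 33 entries in signal. rps15 (ATCG01120), another small-subunit gene, had 676 and 716 in del-cIDR, 395 and 416 in FL, 550.5 and 568 in inactive del-cIDR, 319 and 395 in inactive FL and 362 and 361 in Col-0. It rose by 0.93 ± 0.086 (SE, limma adjusted p = 2.02e-13) in del-cIDR and 0.62 ± 0.086 (SE, limma adjusted p = 3.59e-08) in inactive del-cIDR, and its inactive FL libraries lay on both sides of Col-0. rps19 (ATCG00820), whose protein sits in the head of the small subunit, had 1355 and 1517 in del-cIDR, 786 and 741 in FL, 1018 and 1076 in inactive del-cIDR, 771 and 891 in inactive FL and 841 and 768 in Col-0. It rose in both lines without the disordered region, at 0.83 ± 0.069 (SE, limma adjusted p = 4.26e-15) in del-cIDR and 0.38 ± 0.069 (SE, limma adjusted p = 1.07e-05) in inactive del-cIDR, the second of which became -0.00018 after median-centring. The active line lay above the inactive one by 0.45 ± 0.069 (SE, limma adjusted p = 3.99e-07).

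Genes transcribed together were also set side by side. In the rpoB cluster, which runs from rpoB through rpoC1 to rpoC2, the 3 changes against Col-0 lay between 0.58 and 0.85 in del-cIDR, between 0.35 and 0.66 in inactive del-cIDR, and between -0.21 and -0.12 in FL. In the rpl23 cluster, whose 11 entries run from rpl23 to rpoA and are mostly ribosomal protein genes, they lay between 0.46 and 0.83 in del-cIDR, between 0.14 and 0.41 in inactive del-cIDR, and between -0.26 and -0.0023 in FL. The ranges of the clusters overlapped in each of these lines. In inactive del-cIDR their medians were furthest apart, with values of 0.60 for the rpoB cluster and 0.28 for the rpl23 cluster. For rpl23 and rpl2, which lie in the inverted repeat, only the first copies were counted here. With copies summed, rpl23 and rpl2 lay outside these ranges, at 0.12 and 0.11 in del-cIDR. Their summed values were -0.30 and -0.15 in inactive del-cIDR, and -0.71 and -0.54 in FL.

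A measure that no scaling of a library can alter is the level of one gene class relative to another in the same library. Relative to the mean of 35 plastid photosynthesis entries, and to Col-0, the mean log2 level of the 4 polymerase genes was 0.10 and 0.09 higher in the del-cIDR libraries, 0.39 and 0.38 higher in inactive del-cIDR, 0.21 and 0.22 higher in FL, and 0.07 higher in both inactive FL libraries. The Col-0 libraries were at 0.01 and -0.01. The 17 ribosomal protein entries outside the inverted repeat pairs were 0.05 and 0.06 higher in del-cIDR, 0.22 higher in both inactive del-cIDR libraries, 0.24 higher in both FL libraries, 0.08 and 0.09 higher in inactive FL, and at 0.01 and -0.01 in Col-0. For these 2 groups the level relative to photosynthesis genes was above Col-0 in all 8 ALKBH5 libraries, most so in inactive del-cIDR and FL. Over all 24 ribosomal protein entries, repeat copies included, it was below Col-0 in del-cIDR, at -0.14 and -0.13, and in inactive FL, at -0.067 and -0.056. Those 24 entries stayed above Col-0 in inactive del-cIDR, at 0.05 and 0.03, and in FL, at 0.11 in both libraries. The 5 other entries were 0.14 and 0.10 higher in del-cIDR, 0.41 and 0.40 higher in inactive del-cIDR, 0.23 and 0.22 higher in FL, and -0.08 and -0.05 in inactive FL, against -0.02 and 0.02 in Col-0. In the libraries of inactive del-cIDR the photosynthesis entries themselves were little above Col-0, with a median difference of 0.08.

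**Figure D2:**
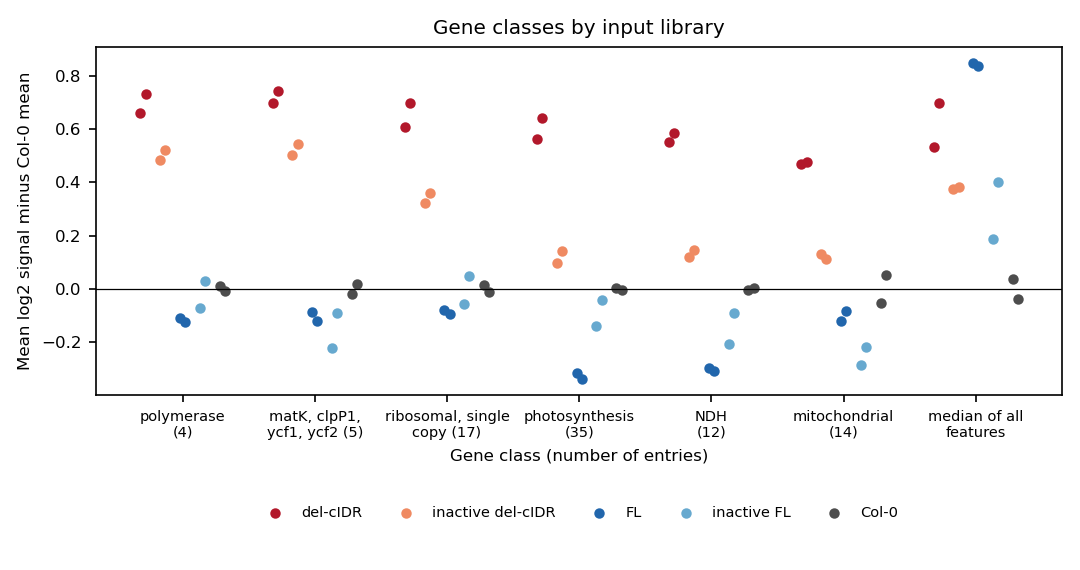
Mean log2 signal of each gene class in each input library, minus the mean of the Col-0 libraries, with the median of all features at the right. On the deposited scale polymerase genes were at 0.49 and 0.52 in inactive del-cIDR while photosynthesis genes were at 0.10 and 0.14, and in FL every plastid class lay below 0 while the median of all features lay at 0.85 and 0.84. With libraries centred on that median, FL would lie lower still and the ribosomal class of inactive del-cIDR would turn negative.

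Each active line was also set against its inactive form. This difference is called the activity effect or activity difference below. An effect of enzyme activity and an effect of the line cannot be told apart in it. In del-cIDR against inactive del-cIDR, 29 of the 33 entries were higher and none lower, where 28.7% of all features were higher and 2.76% lower. At an unadjusted p under 0.05 limma counted 31 higher and none lower. The medians were 0.25 for the 33 entries and 0.27 for all features. After median-centring 5 were higher and 1 lower, where 8.39% of all features were higher and 6.99% lower. In FL against inactive FL, 4 entries were higher and 11 lower, where 58.1% of all features were higher and 0.751% lower. The medians were -0.07 and 0.43. After median-centring all 33 were lower in FL than in inactive FL, where 25.8% of all features were lower, whereas centring on the other plastid protein genes gave 15 higher and 2 lower, where 82.9% of all features were higher and 0.124% lower. With no trend in the prior variance, 11 entries were higher in the first comparison and 3 were lower in the second.

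rps14 (ATCG00330) had the lowest value of the 33 entries for FL against inactive FL. Its signal was 48313 and 50984 in del-cIDR, 24015 and 23916 in FL, 34692 and 36097 in inactive del-cIDR, 31139.9 and 33993 in inactive FL and 31657 and 30998 in Col-0. The 2 FL libraries lay below all others, and those of del-cIDR above all others. The activity difference was 0.49 ± 0.038 (SE, limma adjusted p = 9.73e-16) in del-cIDR and -0.44 ± 0.038 (SE, limma adjusted p = 1.14e-13) in FL. The photosystem I genes of the same operon had like values, with 0.55 and -0.44 for psaA, and 0.63 and -0.45 for psaB. rps2 (ATCG00160), for a small-subunit protein, lies between the rpo genes and those of the ATP synthase. It had 3991 and 3995 in del-cIDR, 2174 and 2244 in FL, 3356 and 3536 in inactive del-cIDR, 2753 and 2808 in inactive FL and 2584 and 2633 in Col-0. FL was again the lowest genotype, -0.33 ± 0.047 (SE, limma adjusted p = 1.06e-07) against its inactive form. rpl16 (ATCG00790), for a large-subunit protein of the rpl23 cluster, had 6070.4 and 6249.6 in del-cIDR, 3474 and 3385 in FL, 4586 and 4785 in inactive del-cIDR, 4005 and 4199 in inactive FL and 4102 and 3944 in Col-0. Its activity difference was 0.39 ± 0.044 (SE, limma adjusted p = 1.10e-10) in del-cIDR and -0.26 ± 0.044 (SE, limma adjusted p = 5.05e-06) in FL.

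At the other end, rpl32 (ATCG01020), a large-subunit gene of the small single-copy region, was higher in both active lines. It had 1179.7 and 1261 in del-cIDR, 1026 and 937 in FL, 969.7 and 972 in inactive del-cIDR, 849 and 850.3 in inactive FL and 922 and 949 in Col-0. The difference of FL from inactive FL was 0.20 ± 0.063 (SE, limma adjusted p = 0.00624), the highest of the 33 entries, and it became -0.34 after median-centring. The other entries named for a high value in this comparison were rps15, at 0.19 ± 0.086 (SE, limma adjusted p = 0.0567), which did not pass the test, and rps12B, at 0.18 ± 0.055 (SE, limma adjusted p = 0.00527).

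The difference between the 2 activity effects was itself tested. In 21 of the 33 entries the effect was more positive in del-cIDR than in FL and in none less so, where 6.15% of all features were called more positive and 13.9% less. The median was 0.32 over the 33 entries and -0.19 over all features. At an unadjusted p under 0.05 limma counted 23 entries and none. After median-centring 31 entries were more positive, where 20.8% of all features were. After centring on the other plastid protein genes 1 was more positive and 13 less, where 0.885% of all features were more positive and 57.8% less. rps14 stood highest, at 0.93 ± 0.054 (SE, limma adjusted p = 2.38e-20), and rps16 lowest, at -0.19 ± 0.18 (SE, limma adjusted p = 0.495). All 4 polymerase genes were called, between 0.22 and 0.37, as were 15 of 24 ribosomal protein entries, and of the 5 other entries clpP1, at 0.46 ± 0.057 (SE, limma adjusted p = 5.10e-09), and ycf2.2, at 0.26 ± 0.072 (SE, limma adjusted p = 0.00656). With no trend in the prior variance, none of the 4 polymerase genes, 7 of the 24 ribosomal protein entries and none of the 5 others were called. For matK the difference was -0.029 ± 0.061 (SE, limma adjusted p = 0.776). All 35 photosynthesis entries (median 0.76) and all 12 entries of the plastid NDH complex (median 0.65) were called in the same direction.

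**Figure D3:**
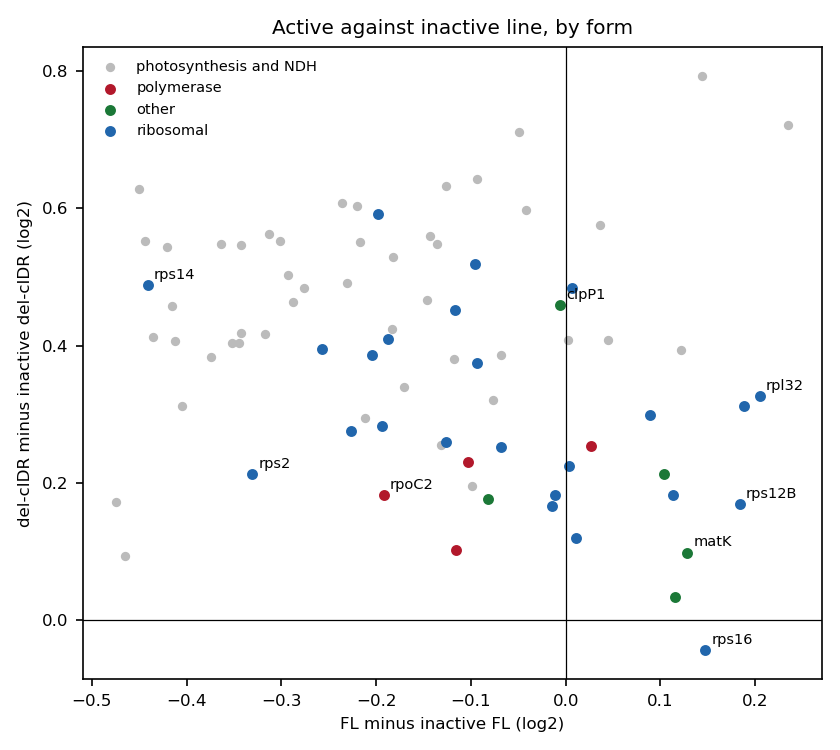
Log2 difference of FL from inactive FL (horizontal axis) and of del-cIDR from inactive del-cIDR (vertical axis) on the deposited scale, one point for each entry, with polymerase (red), other (green) and ribosomal protein (blue) housekeeping entries and photosynthesis and NDH entries (grey). All housekeeping entries but rps16 lay above 0 on the vertical axis while they spread from -0.44 (rps14) to 0.20 (rpl32) on the horizontal one. After median-centring all 33 lay below 0 on the horizontal axis.

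The 2 active forms were also compared directly. In del-cIDR against FL, 32 of the 33 entries were higher and none lower, where 10.6% of all features were higher and 20% lower, and at an unadjusted p under 0.05 limma counted the same numbers. The median was 0.78 over the 33 entries and -0.14 over all features. After median-centring all 33 were higher, where 26.4% of all features were, but after centring on the other plastid protein genes 4 were higher and 9 lower, where 0.438% of all features were higher and 91.7% lower. matK had the highest value, 1.05 ± 0.043 (SE, limma adjusted p = 2.62e-27), followed closely by rps14 at 1.05, and rps12B the lowest, 0.10 ± 0.055 (SE, limma adjusted p = 0.157). A comparison of the inactive forms, added after the data had been seen, gave 29 entries higher in inactive del-cIDR than in inactive FL and none lower, where 11.6% of all features were higher and 8.33% lower. At an unadjusted p under 0.05 limma counted 31 and none, and after median-centring 20 and none were called, where 8.9% of all features were higher and 12.1% lower. Its median was 0.33 over the 33 entries and 0.06 over all features. The 4 polymerase genes were all higher, between 0.42 and 0.61. matK was again the highest, at 1.08 ± 0.043 (SE, limma adjusted p = 4.08e-28), and the lowest was the first copy of rps7, at -0.090 ± 0.077 (SE, limma adjusted p = 0.512). rps14 was 0.12 higher in inactive del-cIDR than in inactive FL, and 1.05 higher in del-cIDR than in FL.

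The plastid genome holds a large inverted repeat, and genes in it have 2 near-identical copies, so reads from them can be assigned to either. The table nevertheless gives the copies different signals. rpl23, for a large-subunit protein at the exit of the polypeptide tunnel, had in its second copy 405 and 439.9 in del-cIDR, 251 and 261 in FL, 346 and 338 in inactive del-cIDR, 223 and 259 in inactive FL and 483 and 487 in Col-0. Its first copy had 298 and 285 in del-cIDR, 147 and 142 in FL, 210.3 and 174 in inactive del-cIDR, 162 and 171 in inactive FL and 176 and 169.7 in Col-0. The second copy was below Col-0 in every ALKBH5 library while the first was not. The same held for the second copy of rps7, an early-assembling small-subunit protein, which had 1572 and 1607 in del-cIDR, 1308 and 1170.5 in FL, 1400.5 and 1526 in inactive del-cIDR, 1177 and 1281 in inactive FL and 2199.8 and 2168 in Col-0. It differed from Col-0 by -0.46 ± 0.059 (SE, limma adjusted p = 3.47e-09) in del-cIDR and -0.82 ± 0.059 (SE, limma adjusted p = 1.53e-17) in FL. rps12B (ATCG01230), the entry for one copy of the 3' part of the trans-spliced rps12 gene, had 1669 and 1849.8 in del-cIDR, 1641 and 1631 in FL, 1523 and 1601 in inactive del-cIDR, 1371 and 1512 in inactive FL and 2863 and 2902 in Col-0. All 8 ALKBH5 libraries lay below both Col-0 libraries, and the difference was -0.71 ± 0.055 (SE, limma adjusted p = 3.71e-16) in del-cIDR and -0.998 in inactive FL, the lowest of the 33 entries in each.

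The ratio of the second copy to the first separated Col-0 from all 8 ALKBH5 libraries for every gene of the repeat that was looked at. For rpl2 it was 1.29 to 1.85 in the ALKBH5 lines and 2.52 to 2.88 in Col-0, and for rpl23 1.36 to 1.94 and 2.75 to 2.87. For rps7 it was 1.83 to 2.45 in the ALKBH5 lines and 3.34 to 3.36 in Col-0, and for the 3' part of rps12 1.06 to 1.44 and 2.17 to 2.46. The NDH gene ndhB, which is not a housekeeping gene, lies between them and had 0.945 to 1.30 in the ALKBH5 lines and 1.82 to 1.96 in Col-0. For ycf2 the ratio ran the other way, 0.726 to 1.02 in the ALKBH5 lines and 0.548 to 0.57 in Col-0. A ratio within a library does not depend on its scaling. These ratios were looked at after the values had been seen, and no test is given. With the copies summed, rps7 was lower than Col-0 in del-cIDR by -0.27, rpl2 was 0.11 higher, rpl23 was 0.12 higher without passing the test (limma adjusted p = 0.174), and ycf2 was 0.49 higher. In FL the summed values were -0.54 for rpl2, -0.71 for rpl23, -0.64 for rps7 and -0.32 for ycf2. Those of inactive FL were -0.53, -0.68, -0.58 and -0.34. Copies of the 3' part of rps12 were not summed for a test. Together they had 2614 to 3322 in the ALKBH5 lines and 4080 to 4181 in Col-0.

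**Figure D4:**
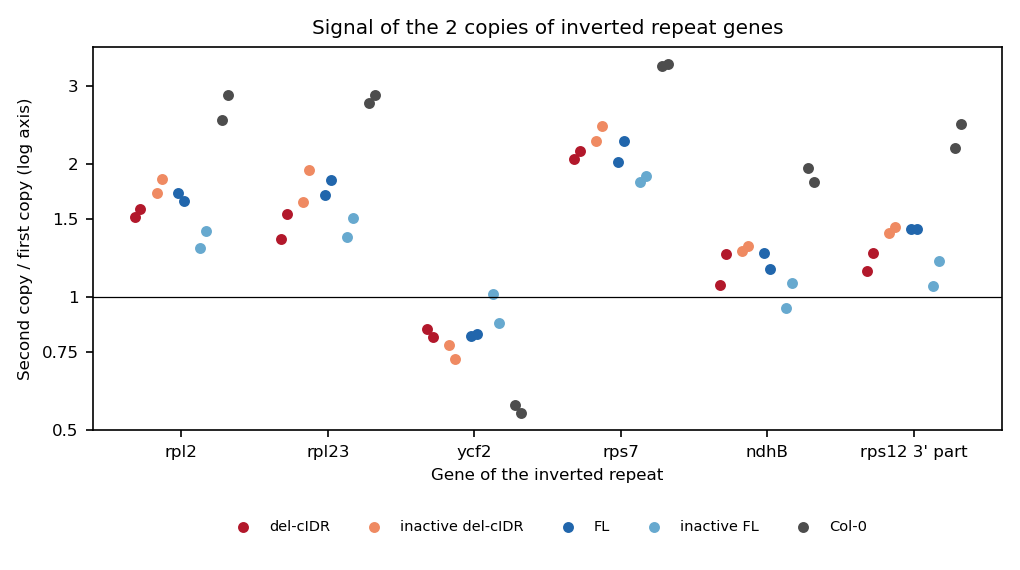
Ratio of the signal of the second to that of the first copy of 6 inverted repeat genes (log axis) in each input library, coloured by genotype. The Col-0 points lie above those of all 8 ALKBH5 libraries for rpl2, rpl23, rps7, ndhB and the 3' part of rps12, and below them for ycf2.

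Partners of these genes are encoded in the nucleus, and their lists were set beside the plastid entries. Of 32 nuclear-encoded plastid ribosomal protein genes, 29 rose and none fell in del-cIDR (median 0.49), 20 rose and 1 fell in inactive del-cIDR (0.35), 2 rose and 5 fell in FL (-0.015), and none rose and 11 fell in inactive FL (-0.16). Beside these lists stand the shares of all features that rose, 65.5% in del-cIDR, 32.4% in inactive del-cIDR, 75.5% in FL and 16.9% in inactive FL. The shares that fell were 1.85%, 7.84%, 1.47% and 3.12% in the same order. RPS1, a small-subunit protein, had 1379 and 1397 in del-cIDR, 833 and 749 in FL, 1236 and 1348 in inactive del-cIDR, 692 and 764 in inactive FL and 702 and 749.9 in Col-0, and was 0.93 ± 0.067 (SE, limma adjusted p = 1.87e-17) higher in del-cIDR. Between del-cIDR and inactive del-cIDR, 14 of the 32 were higher and none lower, where 28.7% of all features were higher and 2.76% lower. The difference between the activity effects was called more positive in 5, against 15 of 24 plastid-encoded entries and 6.15% of all features.

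Of 9 sigma factors and phage-type polymerases, which start transcription in organelles, 6 rose in del-cIDR (median 0.35) and 6 in FL (median 0.24), near the shares of 65.5% and 75.5% over all features, and none fell in either. In inactive del-cIDR 3 rose and 2 fell (0.09), and in inactive FL 1 rose (0.06). RPOTmp (AT5G15700), a phage-type polymerase found in both organelles, had 657 and 653 in del-cIDR, 618 and 610.1 in FL, 388 and 362 in inactive del-cIDR, 459.7 and 520.0 in inactive FL and 399 and 442 in Col-0. It was higher in del-cIDR than in its inactive form by 0.80 ± 0.081 (SE, limma adjusted p = 1.03e-11). SIG5 (SIGE), a sigma factor that responds to light and stress, went the other way, with 142 and 191 in del-cIDR, 194 and 195 in FL, 358 and 363 in inactive del-cIDR, 148 and 126 in inactive FL and 137 and 133 in Col-0. The 2 inactive del-cIDR libraries lay well above all 8 others, and del-cIDR was lower than inactive del-cIDR by -1.09 ± 0.13 (SE, limma adjusted p = 6.57e-10). Of 13 proteins that associate with the plastid-encoded polymerase, 11 rose in del-cIDR (median 0.35), 2 rose and 3 fell in inactive del-cIDR (0.09), 6 rose in FL (0.24) and 1 rose in inactive FL (0.0024). Over all features more also rose in the active lines (65.5% and 75.5%) than in the inactive ones (32.4% and 16.9%).

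Of 12 genes of the Clp protease, which works with ClpP1, 10 rose and none fell in del-cIDR (median 0.34), and 5 rose and 1 fell in FL (0.13), where 65.5% and 75.5% of all features rose. In inactive del-cIDR 4 rose and 1 fell (0.06), and in inactive FL none rose and 1 fell (-0.051). The one that fell in FL was CLPC1, a chaperone subunit, with 15798 and 15525 in FL and 18348 and 18537 in Col-0. Of 8 measured partners of Ycf1 and Ycf2 at the inner envelope, 7 rose and 1 fell in del-cIDR (0.41), 5 rose and 1 fell in inactive del-cIDR (0.22), 7 rose in FL (0.30) and 1 rose in inactive FL (0.10). All 6 genes of plastid RNA processing rose in del-cIDR (0.52), 3 rose and 1 fell in inactive del-cIDR (0.38), 5 rose in FL (0.28) and 3 rose in inactive FL (0.14). Among them CRB (CSP41B), an RNA-binding protein of chloroplast ribosome preparations, had 1279 and 1349 in del-cIDR, 664 and 701 in FL, 1797 and 1870.1 in inactive del-cIDR, 613 and 604 in inactive FL and 583 and 586 in Col-0. Like matK and the rpoB cluster it was high in both lines without the disordered region, though highest in the inactive one, with a difference of -0.48 ± 0.064 (SE, limma adjusted p = 1.81e-08) between del-cIDR and inactive del-cIDR.

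Methylation was measured as a deposited ratio for 2291 peaks, scaled to an m6A spike-in, and 4 of the 23 plastid peaks overlapped housekeeping entries. In the authors' TAIR10 coordinates of the plastid genome they lay at 37042 to 37283 on rps14, at 97536 to 97755 on the first copy of rps7, and at 85684 to 85911 and 152737 to 152964 across rpl2 and rpl23 in each repeat. Gene spans for this overlap came from the RefSeq table, and no peak lay on a polymerase gene, matK, clpP1, ycf1 or ycf2. On rps14 the m6A ratio was 0.409 and 0.448 in del-cIDR, 0.726 and 1.03 in FL, 0.426 and 0.602 in inactive del-cIDR, 0.621 and 0.576 in inactive FL and 3.05 and 2.93 in Col-0. On the first copy of rps7 it was 0.344 and 0.441 in del-cIDR, 0.561 and 0.734 in FL, 0.294 and 0.361 in inactive del-cIDR, 0.334 and 0.255 in inactive FL and 2.94 and 2.83 in Col-0. All 8 ALKBH5 libraries, with active or inactive enzyme, lay far below the 2 Col-0 libraries at both peaks.

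Both single-gene peaks were called lower than Col-0 in all 4 lines. Of all peaks, 79.8% were lower in del-cIDR, 24.1% in inactive del-cIDR, 22.7% in FL and 21.8% in inactive FL. Of the 19 plastid peaks outside housekeeping entries, 17 were lower in del-cIDR, 18 in inactive del-cIDR, 9 in FL and 14 in inactive FL. Their median log2 differences from Col-0 were -1.22, -1.40, -0.87 and -1.32 in the same order. Those of the 4 housekeeping peaks were -1.86, -1.79, -1.28 and -1.72. On rps14 the log2 difference was -1.86 ± 0.28 (SE, limma adjusted p = 8.33e-10) in del-cIDR and -1.63 ± 0.28 (SE, limma adjusted p = 1.54e-07) in inactive FL, and on rps7 -1.88 ± 0.24 (SE, limma adjusted p = 1.17e-13) and -2.04 ± 0.24 (SE, limma adjusted p = 7.40e-16). The peaks across rpl2 and rpl23 had lower values too, which made 4 of 4 when they were counted. After centring each library on the median of all peaks the limma counts were 0 in all 4 lines, with 2 of the 2 single-gene peaks lower at an unadjusted p under 0.05 in inactive del-cIDR, 1 in inactive FL and 0 in del-cIDR and in FL. Between active and inactive lines neither peak was called. In del-cIDR against inactive del-cIDR, where 0.175% of all peaks were lower, limma gave 0 also at an unadjusted p under 0.05. In FL against inactive FL, where 0.218% were higher, 1 did so. In del-cIDR against FL, where 0.873% of all peaks were lower, 0 passed either threshold. These tests used log2(value + pseudocount), with a pseudocount of 0.542. All del-cIDR ratios at both peaks lay below it, as did both inactive lines on rps7. On rps14 inactive del-cIDR had 0.426 and 0.602, and inactive FL lay above the pseudocount, as did FL at both peaks. The pseudocount shrinks differences between ratios this low, so the missing calls do not show that active and inactive lines had equal m6A. It also makes the log2 differences from Col-0 smaller. Relative to Col-0, the m6A ratio on rps14 was lower in del-cIDR and FL, while the input was higher in del-cIDR and lower in FL. Among the 4 ALKBH5 lines the mean ratio on rps14 ran opposite to the mean input. From del-cIDR through inactive del-cIDR and inactive FL to FL, the ratio was 0.43, 0.51, 0.60 and 0.88. In the same order the input was 49649, 35395, 32566 and 23966. On the first copy of rps7 this did not hold: inactive FL had the lowest ratio, 0.29, and del-cIDR the highest input, 758. How far the ratio follows from the input was not tested.

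**Figure D5:**
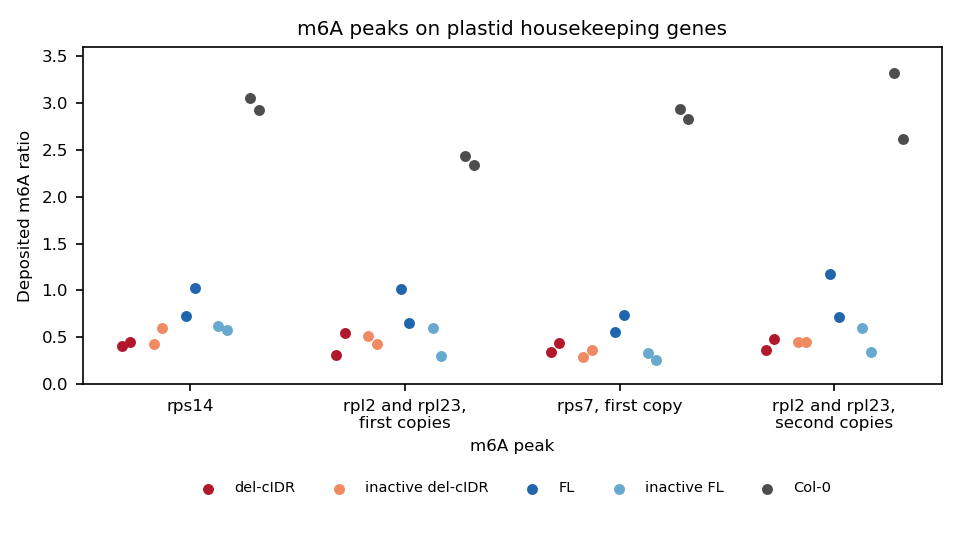
Deposited m6A ratio (from 0) of the 4 peaks on plastid housekeeping genes in each IP library, coloured by genotype. The Col-0 libraries lay between 2.34 and 3.32 and the ALKBH5 libraries between 0.255 and 1.18, with the FL mean the highest of the 4 lines at each peak. Centred on the median of all peaks, none of the differences from Col-0 was called for the 2 single-gene peaks.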

How the data were processed

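Expression came from 10 input libraries and m6A from 10 IP libraries; groups follow the genotypes in the labels. The authors deposited the expression table as a scaled signal per gene, with no value of 0; from the values, the ERCC sum is nearly equal in all libraries, and the scaling step is not given in the sources used here. They deposited m6A as a ratio per peak, with the m6A spike-in equal in all libraries. Per the submitters' processing notes, the tools included HISAT2, fastp, Picard, SAMtools, featureCounts, MACS2 and bedtools (versions and roles not given there), and the build was TAIR10. Per the labels' protocols, libraries were stranded total RNA. No counts can be recovered, so depth is unknown. There were 0 columns of other samples.

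Values were analysed as log2(value + pseudocount), the pseudocount being the 5th percentile of non-zero values (6.94 for expression, 0.542 for m6A). Features had to reach it in at least 2 libraries. limma (3.58.1, R 4.3.3) fitted 5 group means with a trend in the prior variance and two-sided tests, adjusted by Benjamini-Hochberg over 30613 features or 2291 peaks. The fit was tested on simulated data. Alternatives were other pseudocounts and filters, median-centring, plastid-centring (on the plastid protein genes outside the housekeeping set), no trend, a replicate block, fewer libraries, and, added after seeing the data, summed copies. Peaks were assigned to genes by overlap with RefSeq spans (TAIR10.1), whose plastid coordinates were taken as those of TAIR10. Of 86 plastid identifiers named from standard nomenclature, 83 had a same-named RefSeq gene, and 0 neighbouring pairs were out of order.

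Some entries are not reported individually here. The genes and gene lists were chosen with earlier results of these data known. Named in full are the polymerase genes, matK, clpP1, ycf1, ycf2, the 3 ribosomal protein genes highest and lowest in del-cIDR against Col-0 and in FL against inactive FL, the highest and lowest entry of the other comparisons, and nuclear genes of smallest p. Figures were drawn with matplotlib 3.10.9 (Python 3.11.15, pandas 2.3.3, numpy 2.4.6).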

Additional observations from a re-analysis of the deposited data

Results flagged for a closer look

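For 21 of the 33 housekeeping entries the effect of catalytic activity differed between the forms of ALKBH5: the log2 difference of del-cIDR from inactive del-cIDR, minus that of FL from inactive FL, passed the limma test with adjustment over all features. All 21 values were positive on the deposited scale. Among the ribosomal protein genes given here they were rps14 at 0.93, rpl23.1 at 0.79, rpl16 at 0.65, rpl22 at 0.61, rps3 at 0.60, rpl2.1 at 0.59, rps19 at 0.57, rps2 at 0.54, rpl14 at 0.50, rps4 at 0.48, rps7.1 at 0.48, rpl20 at 0.32 and rpl33 at 0.19. Among polymerase genes they were rpoC2 at 0.37, rpoC1 at 0.33, rpoA at 0.23 and rpoB at 0.22. Of the other entries they were clpP1 at 0.46 and ycf2.2 at 0.26. As an example, rps14 had signals of 48313 and 50984 in del-cIDR and 34692 and 36097 in inactive del-cIDR, and 24015 and 23916 in FL and 31139.9 and 33993 in inactive FL. All 35 photosynthesis and all 12 NDH entries passed in the positive direction, with medians of 0.76 and 0.65, against 0.32 over the 33 entries. Of all 30613 features, 6.15% passed in this direction, and with libraries centred on the other plastid protein genes 1 of the 33 entries did and 13 passed in the opposite one. With no trend in the prior variance 7 of the 33 entries passed, none of them a polymerase gene. For genes of the inverted repeat the value depended on the copy. The second copies of rpl23, rpl2 and rps7 did not pass, at 0.21, 0.07 and 0.11. With copies summed these genes passed at 0.44, 0.27 and 0.23. For ycf2 the first copy was at -0.08 and the summed copies at 0.08, and neither passed.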

How the results depend on the processing

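The result depended most on the scaling. Centred on the median of all features, the numbers of housekeeping entries called were 15 in del-cIDR against Col-0 (7 higher, 8 lower, a turn of the majority), 15 in inactive del-cIDR against Col-0 (7 and 8, likewise), 33 in FL against Col-0, 31 in inactive FL against Col-0, 6 in del-cIDR against inactive del-cIDR and 33 in FL against inactive FL. Centred on the other plastid protein genes, they were 15 in del-cIDR against Col-0, 14 in inactive del-cIDR against Col-0, 4 in del-cIDR against inactive del-cIDR and 12 in inactive del-cIDR against inactive FL, and the majority turned in FL against Col-0 (17 called, 11 higher), FL against inactive FL (17, 15 higher), del-cIDR against FL (13, 9 lower) and the difference between the activity effects (14, 13 lower). Without a trend in the prior variance they were 9 in FL and 18 in inactive del-cIDR against Col-0, 11 in del-cIDR against inactive del-cIDR, 3 in FL against inactive FL, 7 for the difference between the activity effects and 14 between the inactive forms. The cause was not tested beyond what these shifts are by construction. For the m6A peaks, median-centring left 0 called in each line against Col-0, and counting peaks over 2 genes, chosen after seeing the data, gave 4.

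Leaving out 1 library at a time, the count ran from 30 to 33 in del-cIDR, 13 to 22 in FL, 29 to 29 in inactive del-cIDR and 6 to 8 in inactive FL against Col-0, from 22 to 30 in del-cIDR against inactive del-cIDR, 10 to 15 in FL against inactive FL, 31 to 32 in del-cIDR against FL, 18 to 23 for the difference between the activity effects, and 26 to 31 between the inactive forms; both m6A peaks remained called against Col-0 in every line. Libraries of different genotypes share only a replicate number: their deviations correlated between -0.043 and 0.105 in the expression table and between -0.23 and 0.35 in the m6A table, where 6 of 10 pairs of genotypes were over 0.1. The block left the counts of m6A peaks called as they were. With the replicate number as a block, 32, 19, 29 and 7 entries were called in del-cIDR, FL, inactive del-cIDR and inactive FL against Col-0, and 21 for the difference between the activity effects. Over 22 named genes and 9 comparisons, the alternatives gave 3933 values. Of these, 3572 kept their side of the threshold, 174 lost the call and 119 gained it. A further 68, counted apart, had been called in the fit reported above and changed sign, whether still called or not. For values not called in that fit, a change of sign was not counted.

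Among named genes, the values called on the deposited scale that changed sign after median-centring were these. Values not called there are left out. In FL against Col-0 all 33 entries were negative after median-centring, from -1.75 to -0.65. In del-cIDR against Col-0 rpoC1 became -0.032, clpP1 -0.11, ycf2.1 -0.35, rpl16 -0.00052, rpl32 -0.23, rps2 -0.0016 and rps7.1 -0.40. In inactive del-cIDR against Col-0 rpoC1 became -0.027, ycf2.1 -0.15, rpl16 -0.16, rpl2.1 -0.12, rps14 -0.20 and rps19 -0.00018. In FL against Col-0 matK became -0.73. In del-cIDR against inactive del-cIDR rpoB became -0.13, rpoC1 -0.0055, rpoC2 -0.054, ycf1.2 -0.023, ycf2.2 -0.060, rps12B -0.068 and rps2 -0.024. In FL against inactive FL matK became -0.42, rpl32 -0.34 and rps12B -0.36. After centring on the other plastid protein genes more did. In del-cIDR against Col-0 clpP1 became -0.043, ycf2.1 -0.29, rpl32 -0.17 and rps7.1 -0.33. In inactive del-cIDR against Col-0 ycf2.1 became -0.041, rpl16 -0.049, rpl2.1 -0.010 and rps14 -0.093. In FL against Col-0 rpoB became 0.10, rpoC1 0.018, rpoC2 0.089, clpP1 0.071 and rps7.1 0.056. In del-cIDR against inactive del-cIDR rpoA became -0.025, rpoB -0.18, rpoC1 -0.047, rpoC2 -0.10, ycf1.2 -0.065, ycf2.2 -0.10, rps12B -0.11 and rps2 -0.066. In FL against inactive FL rpoB became 0.061 and rpoC1 0.073. In del-cIDR against FL rpoA became -0.12, clpP1 -0.11, rpl2.1 -0.046, rpl23.2 -0.063, rpl32 -0.46, rps15 -0.0022, rps7.1 -0.39 and rps7.2 -0.41. In the difference between the activity effects rpoA became -0.23, rpoB -0.24, rpoC1 -0.12, rpoC2 -0.080 and ycf2.2 -0.20. In inactive del-cIDR against inactive FL clpP1 became -0.12, rpl16 -0.13, rpl32 -0.13, rps14 -0.20, rps2 -0.0081 and rps7.2 -0.067. With copies summed, also chosen after seeing the data, rpl2 became -0.15 in inactive del-cIDR and rps7 -0.27 in del-cIDR against Col-0. Depth is unknown, 2 libraries a genotype limit every estimate of spread, and reads of repeat copies cannot be assigned with certainty.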
